A study of Homo sapiens with 6 samples.

Results

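The 39 protein-coding HOX genes of the HOXA, HOXB, HOXC and HOXD clusters were analyzed in AGS gastric cancer cells with and without depletion of FTO, an eraser of the m6A mark on RNA. The genes were chosen by symbol, HOXA, HOXB, HOXC or HOXD followed by a number, and make up 39 of the 58174 genes in the deposited table. There are 11 in HOXA, 10 in HOXB, 9 in HOXC and 9 in HOXD. AGS is an established human line that came from an adenocarcinoma of the stomach. The sequenced RNA came from 3 libraries transfected with a negative control siRNA, called si-NC, and 3 transfected with an siRNA against FTO, called si-FTO. A genotype field in the labels gives wild type for the first group and FTO-/- for the other, whereas the sample titles and the study's methods give siRNA. Values are TPM, transcripts scaled to a fixed total and corrected for gene length, deposited as 1 mean per group. Each value below is therefore the authors' mean for its group, with no error between libraries and no known depth. No difference was tested here, and the p-values that the authors give per gene were not used.

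HOX genes encode homeodomain transcription factors that set the identity of body segments along the head-to-tail axis. They lie in clusters in which the order of the genes follows the order in which they are used, with low paralog numbers for anterior structures and high numbers for posterior ones. Genes with the same number in different clusters are paralogs with related DNA binding. Their expression is held on by trithorax-type methyltransferases and held off by Polycomb complexes, retinoic acid induces the anterior genes, and many HOX proteins bind DNA together with PBX and MEIS partners. In the gut, HOX genes pattern the regions of the developing tube, and many are expressed out of place in tumors.

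FTO itself had a mean of 33.1 TPM in si-NC against 7.27 TPM in si-FTO. The difference between groups is given as the log2 ratio of mean TPM, si-FTO over si-NC, after adding 1 TPM to each, which understates the difference for low genes. For FTO it was -2.05. A gene was compared when its mean was at least 0.5 TPM in at least 1 group, and is called lower or higher in si-FTO when its log2 ratio was at least 1 in size.

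The gastric epithelial identity of the cells was looked at before the HOX genes. Of 10 markers, 5 reached 0.5 TPM in at least 1 group, and the sum over the list was 68.4 TPM in si-NC compared with 4992 TPM in si-FTO. The keratin genes KRT8, at 10.8 and 3139 TPM, and KRT18, at 52.1 and 1851 TPM, made up nearly all of it. EPCAM had 1.22 TPM in si-NC versus 0.113 TPM in si-FTO, CDH1 had 3.67 and 0.685 TPM, KRT19 was listed at 0 in si-NC, and TFF1 and GKN1 were listed at 0 in both groups. Apart from the keratin genes, the markers of gastric epithelium were thus low or at 0 in each group, at 3.67 TPM or less. Of 10 markers of blood, endothelium and stroma, 9 were found, with a sum of 14.4 TPM in si-NC against 89.7 TPM in si-FTO. Of the 5 compared, 1 (20%) was lower, the collagen gene COL3A1 at 2.18 and 0.361 TPM, and 4 (80%) were higher. Over all genes compared the shares were 17% and 11.4%. COL3A1 reached 0.5 TPM in si-NC alone, and CDH5 and PDGFRB in si-FTO alone. Of the 2 that reached it in both groups, 0 were lower and 2 higher, where the background is 11.8% and 9.42%. The most abundant was COL1A1 in si-NC, at 10.3 TPM, and the endothelial cadherin CDH5 in si-FTO, at 40.9 TPM, while the endothelial VWF was at 0.00493 and 0.0537 TPM and the leukocyte gene PTPRC was listed at 0 in both. The log2 ratios of KRT8, at 8.06, and CDH5, at 5.38, are far larger in size than that of FTO. The groups thus differ in these markers as well as in HOX genes, and in these means FTO depletion and any other difference between the cells of the 2 groups cannot be told apart. The name AGS comes from the labels, and whether both groups are the same cell line was not tested. In bulk RNA, fewer cells of a type and less RNA per cell cannot be told apart.

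Of the 39 HOX genes, 37 were compared. Among them 25 were lower in si-FTO, 2 were higher and 10 lay within the fold. In HOXA, HOXB and HOXD 23 of the 28 compared were lower, whereas HOXC held both lower and higher genes. Over all 20493 genes compared, 17% were lower and 11.4% were higher. Among the 14176 protein-coding genes compared, the shares were 19.1% and 12%. The median log2 ratio was -1.53 over the HOX genes and -0.20 over all genes compared. Of the 37, 9 reached 0.5 TPM in si-NC alone and so could only be lower. They were HOXA4, HOXA13, HOXB2, HOXB4, HOXB8, HOXB9, HOXC12, HOXD1 and HOXD3. Over the 28 that reached 0.5 TPM in both groups, 17 were lower and 2 higher, with a median of -1.43. The background for that setting is 11.8% lower and 9.42% higher of 15535 genes. Scaling the groups by their median ratio shifts log2 ratios up by at most 0.18, less for low genes, so that the median is -1.43 over the HOX genes and -0.06 over all genes compared, and leaves the same counts of 25 and 2. The log2 ratios of HOXA3 and HOXC13, both near 0, change sign under it and stay within the fold. With a pseudocount of 0.1 in place of 1, the ratio before taking the log2 moved by a fold of over 1.5 for 12 of the 37. A log2 ratio below that of FTO was seen in 12 of the 37 HOX genes and in 5.78% of all genes compared.

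**Figure D1:**
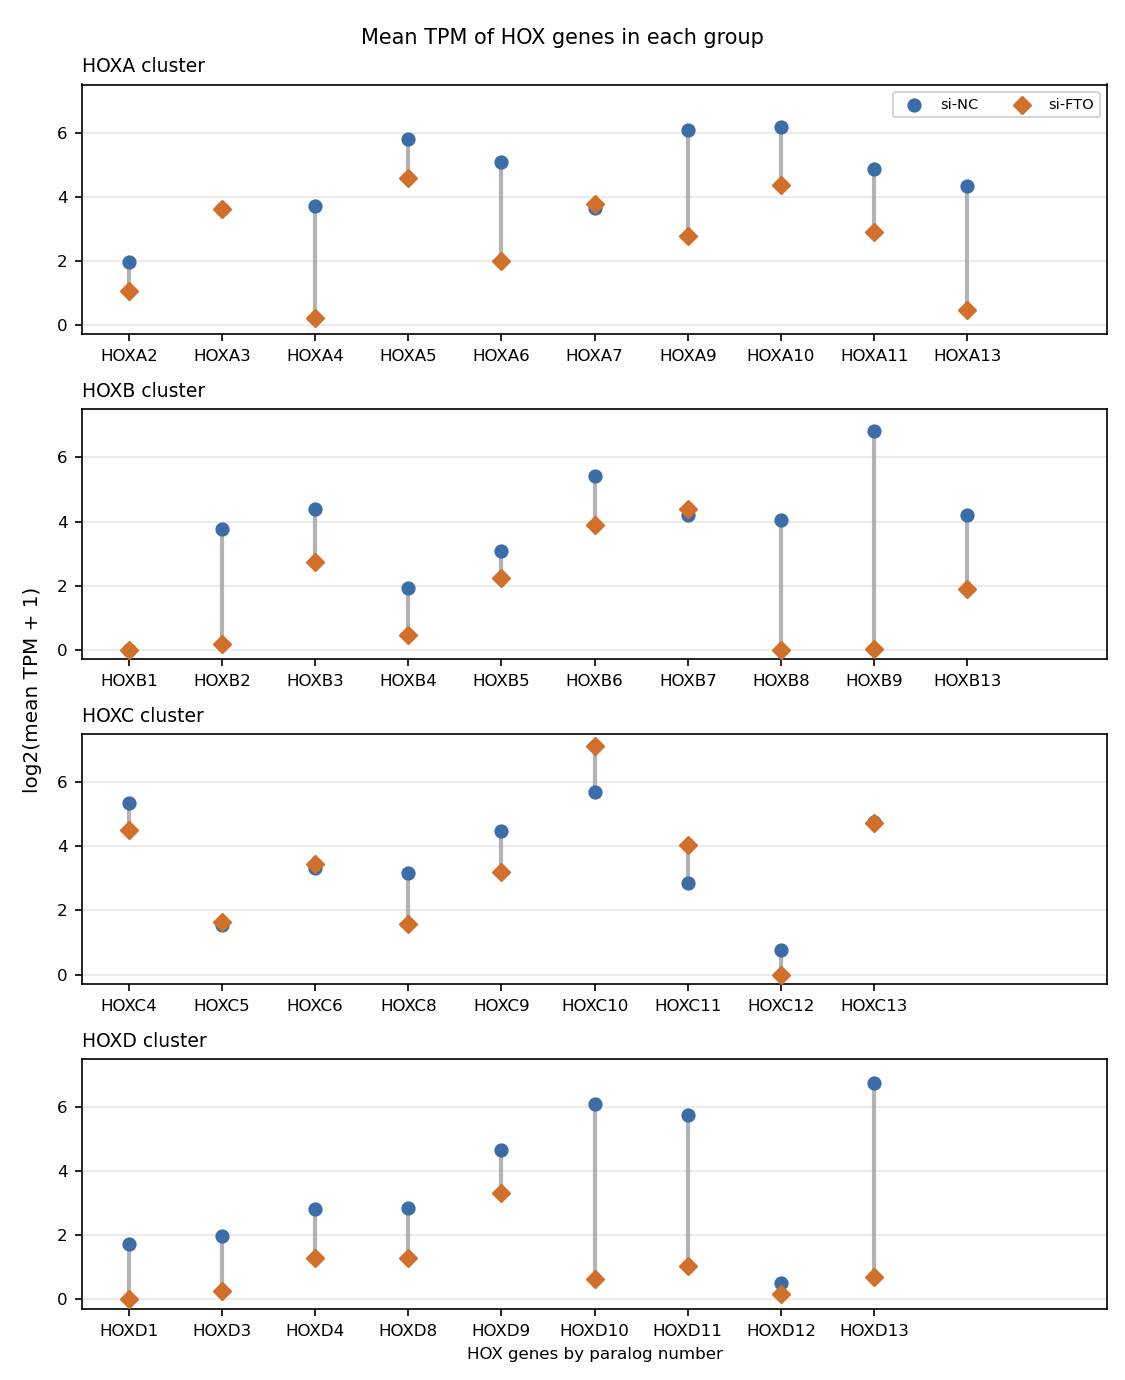
Mean TPM of each HOX gene shown on a log2 scale after adding 1, with si-NC as circles, si-FTO as diamonds and a bar between them, 1 panel per cluster. In HOXA, HOXB and HOXD most diamonds lie well below the circles, whereas HOXC10 and HOXC11 lie above, and HOXA3, HOXA7, HOXB7, HOXC5, HOXC6 and HOXC13 nearly coincide (HOXA3 and HOXC13 change sign with median-ratio scaling).

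The plot of levels shows that the range in si-NC reached from HOXB1, listed at 0, to HOXB9 with 113.5 TPM. The median of the 39 genes was 17.3 TPM in si-NC compared with 2.13 TPM in si-FTO. For comparison, the median of the protein-coding genes compared was 17.7 and 16.4 TPM, close to that of the HOX genes in si-NC, and the median of all genes compared was 8.51 and 7.24 TPM. In si-NC 25 HOX genes had at least 10 TPM, and in si-FTO 10 did. Of those 25, 5 were under 0.5 TPM in si-FTO (HOXA4, HOXA13, HOXB2, HOXB8 and HOXB9), which is 20.0%. The same held for 337 of the 9655 genes with at least 10 TPM in si-NC, or 3.49%.

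The HOXA cluster lies on chromosome 7 of GRCh37 from 27132612 to 27239710, and all 11 genes are transcribed from the minus strand. All were compared, and 8 were lower in si-FTO with 0 higher, beside 17% and 11.4% of all genes compared. HOXA4 and HOXA13 reached 0.5 TPM in si-NC alone and so could only be lower. HOXA2, a selector gene of the branchial arches, had 2.88 and 1.09 TPM, within the fold at -0.89 (-1.33 with a pseudocount of 0.1). HOXA3, needed for the thymus and parathyroid, was level, with 11.3 TPM in si-NC against 11.2 TPM in si-FTO. Its neighbour HOXA4 was far lower in si-FTO, with 12.2 TPM in si-NC compared with 0.159 TPM in si-FTO. HOXA3 and HOXA4 both overlap exons of other annotated transcripts on either strand, so their separate values are uncertain.

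In the middle of HOXA, HOXA5, which acts in lung and gut development, had 55.2 TPM in si-NC versus 22.7 TPM in si-FTO. It was the most abundant HOXA gene of the si-FTO group. HOXA6 had 32.9 and 2.97 TPM, a log2 ratio of -3.09. HOXA7, next to it, was again level, with 11.6 TPM in si-NC against 12.5 TPM in si-FTO. By these values the HOXA genes did not form a block. HOXA7 lies between HOXA6 and HOXA9, whose log2 ratios were -3.09 and -3.29, and HOXA3 lies next to HOXA4, at -3.51. HOXA6 and HOXA7 too overlap exons of other annotated transcripts, HOXA7 on the other strand only, so their separate values are uncertain.

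The 4 posterior HOXA genes were all lower in si-FTO, and HOXA9 and HOXA10 were the most abundant of the cluster in si-NC. HOXA9, a factor of blood stem cells and leukemia, had 66.3 TPM in si-NC compared with 5.89 TPM in si-FTO. HOXA10, which patterns the uterus, had 70.5 and 19.5 TPM. These 2 genes share exons with an annotated readthrough transcript, and the division of reads between them is uncertain. HOXA11, a gene of the forearm and uterus, had 28.1 TPM in si-NC versus 6.45 TPM in si-FTO. HOXA13, which acts in the digits and hindgut, had 19.0 and 0.385 TPM, a log2 ratio of -3.85. With a pseudocount of 0.1 it was -5.30, and that of HOXA4 was -5.57.

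The HOXB cluster lies on chromosome 17 from 46605888 to 46806112, also on the minus strand. Of its 10 genes 9 were compared, with 7 lower and 0 higher, beside 17% and 11.4% of all genes compared. HOXB2, HOXB4, HOXB8 and HOXB9 reached 0.5 TPM in si-NC alone and so could only be lower. HOXB1, a gene of the hindbrain, was listed at 0 in both groups and was not compared. HOXB2 had 12.7 TPM in si-NC against 0.119 TPM in si-FTO, at a log2 ratio of -3.61 (-5.87 with a pseudocount of 0.1). HOXB3 had 20.2 and 5.71 TPM, and HOXB4, known for its use in expanding blood stem cells, had 2.83 and 0.372 TPM. HOXB3 shares exons with HOXB4 and HOXB6 in the annotation, so the values of all 3 are uncertain. HOXB5, a gene of the enteric nervous system, was within the fold at 7.37 TPM in si-NC compared with 3.70 TPM in si-FTO. HOXB6 had 41.7 and 13.8 TPM, a log2 ratio of -1.53.

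From HOXB7 to HOXB9 the values parted sharply. HOXB7 had 17.3 TPM in si-NC versus 20.0 TPM in si-FTO, within the fold at 0.20. HOXB8, the next gene in the cluster, had 15.6 TPM in si-NC and was listed at 0 in si-FTO. HOXB9, which acts in the thoracic skeleton and mammary gland, was the most abundant HOX gene of si-NC at 113.5 TPM and had 0.00505 TPM in si-FTO. Its log2 ratio of -6.83 (-10.08 with a pseudocount of 0.1) was the lowest of the 37 genes compared. HOXB13, a gene of the prostate and tail bud that lies apart from the rest at the posterior end, had 17.3 TPM in si-NC against 2.71 TPM in si-FTO. The exons of HOXB7, HOXB8, HOXB9 and HOXB13 overlap those of no other annotated gene.

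Between HOXB9 and HOXB13 lies MIR196A1, 1 of the genes of the miRNA miR-196a, which is known to target HOXB8. The sequences are shown because the hairpin gene and its target were both listed at 0 in si-FTO. In the mature miRNA, from RefSeq on GRCh38.p14, the capitals mark the seed, bases 2 to 8. In the HOXB8 site, at chr17:46690132-46690153 of GRCh37 on the minus strand, the capitals mark the bases opposite the seed.
hsa-miR-196a-5p: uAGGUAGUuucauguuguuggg
HOXB8 site: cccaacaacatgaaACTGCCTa
The site has 22 bases, lies in an untranslated part of an annotated HOXB8 exon, and is complementary to the miRNA at 21 of them. The remaining position is a G:U wobble. The MIR196A1 gene had 4.90 TPM in si-NC and was listed at 0 in si-FTO, as was HOXB8 itself. The copy in the HOXC cluster, MIR196A2, had 0.0398 TPM in si-NC compared with 0.414 TPM in si-FTO. MIR10B of HOXD, at 0.181 and 0.0213 TPM, and MIR615 of HOXC, listed at 0 in si-NC with 0.223 TPM in si-FTO, were also under 0.5 TPM. These gene-level values do not measure the mature miRNAs. MIR10A and MIR196B were not found by symbol.

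The HOXC cluster lies on chromosome 12 from 54332615 to 54449814 on the plus strand. All 9 genes were compared, with 2 lower, 2 higher and 5 within the fold. It was the only cluster of the 4 with a gene called higher in si-FTO. The higher genes are neighbours. HOXC10, which acts in the lumbar segments of the trunk, had 50.8 TPM in si-NC versus 139.0 TPM in si-FTO, giving a log2 ratio of 1.43. HOXC11, next to it, had 6.20 and 15.6 TPM, a log2 ratio of 1.21. HOXC10 overlaps exons of another transcript on either strand and HOXC11 overlaps none. Further along, HOXC12 had 0.710 TPM in si-NC and was listed at 0 in si-FTO, within the fold at -0.77 but past it at -3.02 with a pseudocount of 0.1. HOXC13, a gene of hair and nail, was level at 26.3 TPM in si-NC against 25.7 TPM in si-FTO.

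On the anterior side of HOXC10 the values were lower or level. HOXC9, which sets thoracic motor neuron identity, had 21.3 TPM in si-NC compared with 8.11 TPM in si-FTO. HOXC8, a gene of the thoracic region, had 8.08 and 1.97 TPM, a log2 ratio of -1.61. HOXC6 had 9.01 TPM in si-NC versus 9.97 TPM in si-FTO, and HOXC5 had 1.94 and 2.13 TPM, both within the fold. HOXC4 had 40.4 TPM in si-NC against 22.1 TPM in si-FTO, at a log2 ratio of -0.84. HOXC4, HOXC5, HOXC6 and HOXC9 share exons with one another or with readthrough transcripts, so the division of reads among them is uncertain. With a pseudocount of 1 the log2 ratios in HOXC spanned -1.61 to 1.43, compared with -3.85 to 0.10 in HOXA and -6.83 to 0.20 in HOXB.

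The HOXD cluster, on chromosome 2 from 176957449 to 177055635 on the plus strand, was lower throughout. Of its 9 genes 8 were compared and all 8 were lower in si-FTO, beside 17% of all genes compared. Their log2 ratios ran from -6.05 to -1.34, or from -7.20 to -1.43 with a pseudocount of 0.1. HOXD1 and HOXD3 reached 0.5 TPM in si-NC alone and so could only be lower. HOXD13, which shapes the digits, had 107.0 TPM in si-NC compared with 0.628 TPM in si-FTO. HOXD11, a gene of the forearm, had 53.4 and 1.08 TPM, and HOXD10, which acts in the lumbar spinal cord and hindlimb, had 68.1 and 0.552 TPM. These 3 posterior genes held most of the HOXD sum in si-NC and had 1.08 TPM or less in si-FTO. HOXD10 and HOXD11 share exons on the same strand, so their separate values are uncertain, whereas HOXD13 overlaps no other gene. HOXD12, between HOXD11 and HOXD13, had 0.442 TPM in si-NC versus 0.128 TPM in si-FTO and was not compared.

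Among the rest of HOXD, HOXD9 had 24.5 TPM in si-NC against 9.03 TPM in si-FTO, the highest level left in the cluster. HOXD8, with 6.18 and 1.48 TPM, and HOXD4, with 6.07 and 1.44 TPM, had the same log2 ratio of -1.53. HOXD3 had 2.97 TPM in si-NC compared with 0.201 TPM in si-FTO, at a log2 ratio of -1.72 (-3.35 with a pseudocount of 0.1). HOXD1, at the anterior end, had 2.35 TPM in si-NC and was listed at 0 in si-FTO. Its log2 ratio of -1.74 is the lowest that the pseudocount of 1 allows at this level, and was -4.61 with 0.1.

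RefSeq promoter sequences on GRCh38.p14, from 250 bases before to 50 bases after a gene start, were matched by symbol for 20 of the 39 HOX genes, with 26 distinct promoters in all; 7 of them are starts of HOXA3, and HOXC4 and HOXC5 share 1. Among the genes with an entry, the 3 with the lowest log2 ratios at a pseudocount of 1 and the 1 with the highest are shown, because these members differed most in log2 ratio. HOXD13 (chr2:176092471-176092770, plus strand), HOXD10 (chr2:176116528-176116827, plus strand) and HOXD11 (chr2:176107030-176107329, plus strand) were far lower in si-FTO. HOXA7 (chr7:27156626-27156925, minus strand) was level. The capitals mark CG, the dinucleotide at which DNA is methylated, which reads the same on both strands.
HOXD13: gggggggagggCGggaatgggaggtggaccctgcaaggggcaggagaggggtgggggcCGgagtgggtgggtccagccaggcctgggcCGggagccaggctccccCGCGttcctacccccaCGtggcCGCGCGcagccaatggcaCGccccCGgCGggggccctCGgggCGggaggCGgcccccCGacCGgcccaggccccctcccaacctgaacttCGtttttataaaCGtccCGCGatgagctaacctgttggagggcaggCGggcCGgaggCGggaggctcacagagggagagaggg
HOXD10: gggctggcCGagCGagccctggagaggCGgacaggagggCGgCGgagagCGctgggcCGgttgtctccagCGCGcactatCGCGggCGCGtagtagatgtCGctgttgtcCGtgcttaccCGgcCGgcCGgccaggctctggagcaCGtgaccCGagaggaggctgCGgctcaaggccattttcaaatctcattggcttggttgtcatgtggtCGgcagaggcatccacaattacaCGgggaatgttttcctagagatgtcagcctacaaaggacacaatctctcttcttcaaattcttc
HOXD11: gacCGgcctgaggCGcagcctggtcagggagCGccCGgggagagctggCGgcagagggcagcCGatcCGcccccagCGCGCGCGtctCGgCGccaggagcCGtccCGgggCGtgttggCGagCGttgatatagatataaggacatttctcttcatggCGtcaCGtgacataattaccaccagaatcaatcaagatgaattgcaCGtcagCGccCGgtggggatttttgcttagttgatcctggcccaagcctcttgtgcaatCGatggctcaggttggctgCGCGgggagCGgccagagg
HOXA7: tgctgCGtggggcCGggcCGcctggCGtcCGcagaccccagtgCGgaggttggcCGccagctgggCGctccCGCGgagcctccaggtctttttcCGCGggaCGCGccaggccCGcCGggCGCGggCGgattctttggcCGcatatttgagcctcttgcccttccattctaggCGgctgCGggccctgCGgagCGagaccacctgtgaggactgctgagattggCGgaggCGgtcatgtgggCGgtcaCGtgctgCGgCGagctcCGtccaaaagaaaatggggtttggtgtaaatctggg
The HOXD13 promoter holds 24 CG, that of HOXD10 23, that of HOXD11 27 and that of HOXA7 31. Of the 34943 distinct promoters in the table, 66.19%, 64.34%, 71.91% and 79.38% hold fewer, in the same order. Over all of these the median was 14.0, and over the 26 HOX promoters it was 22.5, from 0 at a HOXA3 start to 44 at HOXA13. The letters TTTATG, a core bound by caudal-type CDX factors, were searched on both strands and do not overlap CG. They occur in 3 of the 26 HOX promoters, or 11.5%, and in 10.61% of all promoters. The 3 belong to HOXA3, HOXA9 and HOXD8, and none of the 4 shown holds them.

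Because TPM is corrected for length, the members of a cluster can be added up. The HOXA sum was 330.8 TPM in si-NC versus 84.4 TPM in si-FTO, giving a log2 ratio of -1.96. For HOXB it was 248.5 and 46.4 TPM, a log2 ratio of -2.40 (-1.52 without HOXB9). The HOXD sum was 270.9 TPM in si-NC against 14.5 TPM in si-FTO, at -4.13 the lowest of the 4 (-3.47 without HOXD13). HOXC went the other way, with 164.7 TPM in si-NC compared with 224.5 TPM in si-FTO, at a log2 ratio of 0.44. That direction rests on HOXC10: without it the log2 ratio of the HOXC sum was -0.41. The cluster with the smallest sum in si-NC thus had the largest in si-FTO.

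**Figure D2:**
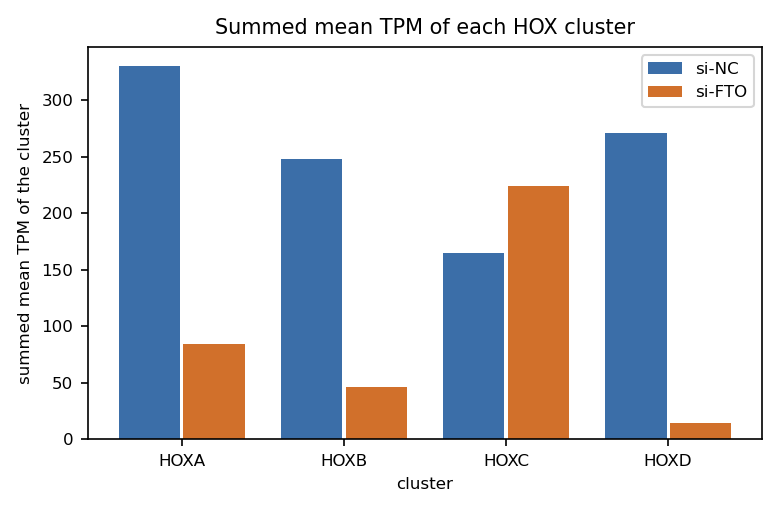
Summed mean TPM of the genes of each HOX cluster, si-NC beside si-FTO. HOXA, HOXB and HOXD are lower in si-FTO, most of all HOXD at 14.5 TPM, whereas HOXC is higher at 224.5 TPM, of which HOXC10 gives 139.0 TPM (without HOXC10 it is lower). Without HOXB9 and HOXD13 the log2 ratios of HOXB and HOXD are smaller in size, at -1.52 and -3.47.

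The composition of the HOX transcripts differed between the groups accordingly. All 39 genes together had 1015 TPM in si-NC versus 369.8 TPM in si-FTO, or 0.101% and 0.037% of all TPM. In si-NC the sum was spread over the clusters, with 32.6% from HOXA, 24.5% from HOXB, 16.2% from HOXC and 26.7% from HOXD. In si-FTO HOXC alone gave 60.7%, and HOXD gave 3.93%. HOXC10 made up 5.01% of HOX TPM in si-NC against 37.6% in si-FTO. The 5 most abundant genes of each group held 41.9% of its sum in si-NC and 62.0% in si-FTO. The order of levels was kept best in HOXC, with a Spearman's rho between the groups of 0.83 over its 9 genes, compared with 0.42 over all 39. These correlations are across genes, which are not independent replicates.

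Ordered by paralog number, the posterior genes carried the HOX sum of the si-NC cells. The 16 genes numbered 9 to 13 had 673.4 TPM in si-NC compared with 234.7 TPM in si-FTO. Without HOXC the posterior sum was 568.1 and 46.4 TPM. The 15 central genes, numbered 4 to 8, had 268.2 TPM in si-NC versus 115.3 TPM in si-FTO, and the 8 anterior genes had 73.2 and 19.9 TPM. The sum was therefore lower in si-FTO for the anterior, the central and the posterior genes alike.

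**Figure D3:**
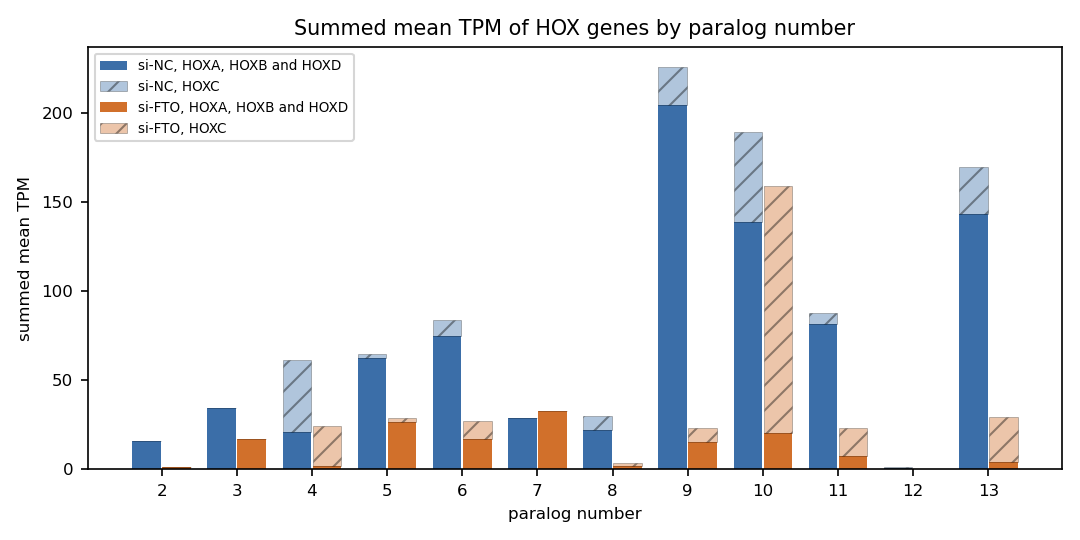
Summed mean TPM of HOX genes by paralog number from 2 to 13, si-NC beside si-FTO, with the HOXC member hatched on top of the members from the other clusters. In si-FTO the HOXC member makes up most of the bars for numbers 4, 8, 10, 11 and 13, and number 7 is the only one whose si-FTO bar is the taller.

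Among paralogs, number 9 had the largest sum in si-NC, 225.6 TPM, and 23.0 TPM in si-FTO, and all 4 of its members were lower. The plot by paralog number shows a different picture at number 10, with 189.4 TPM in si-NC against 159.0 TPM in si-FTO. Here HOXA10 and HOXD10 were lower and HOXC10 higher, and without HOXC10 the sums were 138.6 and 20.1 TPM. Number 13 had 169.6 TPM in si-NC compared with 29.4 TPM in si-FTO, of which HOXC13 was 87.3% in si-FTO. HOXA7 and HOXB7, the only members numbered 7, summed to 28.9 TPM in si-NC versus 32.5 TPM in si-FTO, and neither passed the fold. Paralogs from different clusters thus shared the level pattern at number 7 and the lower pattern at number 9, and split by cluster at number 10.

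Long noncoding RNAs transcribed from within the clusters were compared next. Of 19 listed, 18 were found and compared, with 8 (44.4%) lower in si-FTO, 3 (16.7%) higher and 7 within the fold, beside 17% and 11.4% of all genes. HOTTIP, HOXB-AS1 and HOXB-AS4 reached 0.5 TPM in si-NC alone and HAGLROS in si-FTO alone. Over the 14 that reached it in both groups, 5 (35.7%) were lower and 2 (14.3%) higher, where the background is 11.8% and 9.42%. In HOXA, HOTAIRM1 was level at 42.1 TPM in si-NC against 42.6 TPM in si-FTO. HOXA-AS2, antisense to the level gene HOXA3 and to the lower gene HOXA4, had 8.14 and 12.9 TPM and was within the fold. The other RNAs of HOXA were lower. HOXA-AS3 had 13.5 TPM in si-NC compared with 1.49 TPM in si-FTO, HOXA10-AS had 12.98 and 4.75 TPM, HOXA11-AS had 23.3 and 7.75 TPM, and HOTTIP, an RNA of the HOXA13 end, had 1.14 and 0.0218 TPM.

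HOXB-AS4, close to HOXB9, had 7.94 TPM in si-NC and was listed at 0 in si-FTO, as was LINC03057 in the same interval with 13.5 TPM in si-NC. LINC03057 was not on the list and was chosen after its values were seen. HOXB-AS1 had 1.92 TPM in si-NC versus 0.248 TPM in si-FTO, HOXB-AS2 had 1.95 and 0.590 TPM, and HOXB-AS3 had 13.8 and 6.38 TPM. From HOXB8 to PRAC2, just before HOXB13, every compared gene by annotated start had between 2.99 and 113.5 TPM in si-NC, and none had more than 0.0305 TPM in si-FTO. Each of them reached 0.5 TPM in si-NC alone, and so entered only through the group where it is high. The stretch was taken with these values known. HOXB7 has a lower start position than HOXB8 and so is not counted in it. Its annotated span, 46684594 to 46710934, runs across HOXB8 and HOXB9, and HOXB7 had 17.3 and 20.0 TPM. Genes of the stretch that were not compared include RPL9P28, at 0.138 and 0.0702 TPM. PRAC2 had 2.99 and 0.0305 TPM.

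Of the listed RNAs of HOXC, 2 were higher, HOTAIR and HOXC-AS3. HOTAIR, an RNA known for binding repressive chromatin complexes, is antisense to the HOXC11 region and had 4.26 TPM in si-NC against 19.0 TPM in si-FTO, giving a log2 ratio of 1.92. HOXC-AS3, antisense to HOXC10, had 2.34 and 13.2 TPM, a log2 ratio of 2.09. ENSG00000273049, which starts inside HOXC10 and overlaps it in exons, was within the fold at 0.486 and 1.14 TPM; it was not on the list and was chosen after its values were seen. Among the other listed RNAs, HOXC13-AS had 3.80 TPM in si-NC compared with 2.53 TPM in si-FTO, HOXC-AS2 had 3.91 and 3.99 TPM, and HOXC-AS1 had 8.71 and 5.35 TPM, each within the fold. In HOXD, HAGLR had 12.9 TPM in si-NC versus 0.662 TPM in si-FTO, and HOXD-AS2 had 10.8 and 4.03 TPM. HAGLROS, on the opposite strand within HAGLR, was higher, with 0.264 TPM in si-NC against 2.61 TPM in si-FTO, in a cluster where every HOX gene compared was lower. Across the 39 HOX genes, 20 have an exon overlapping a gene on the other strand and 15 on the same strand. Whether the counting used strand is not given in the sources used here, so values of such partners cannot be fully told apart.

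**Figure D4:**
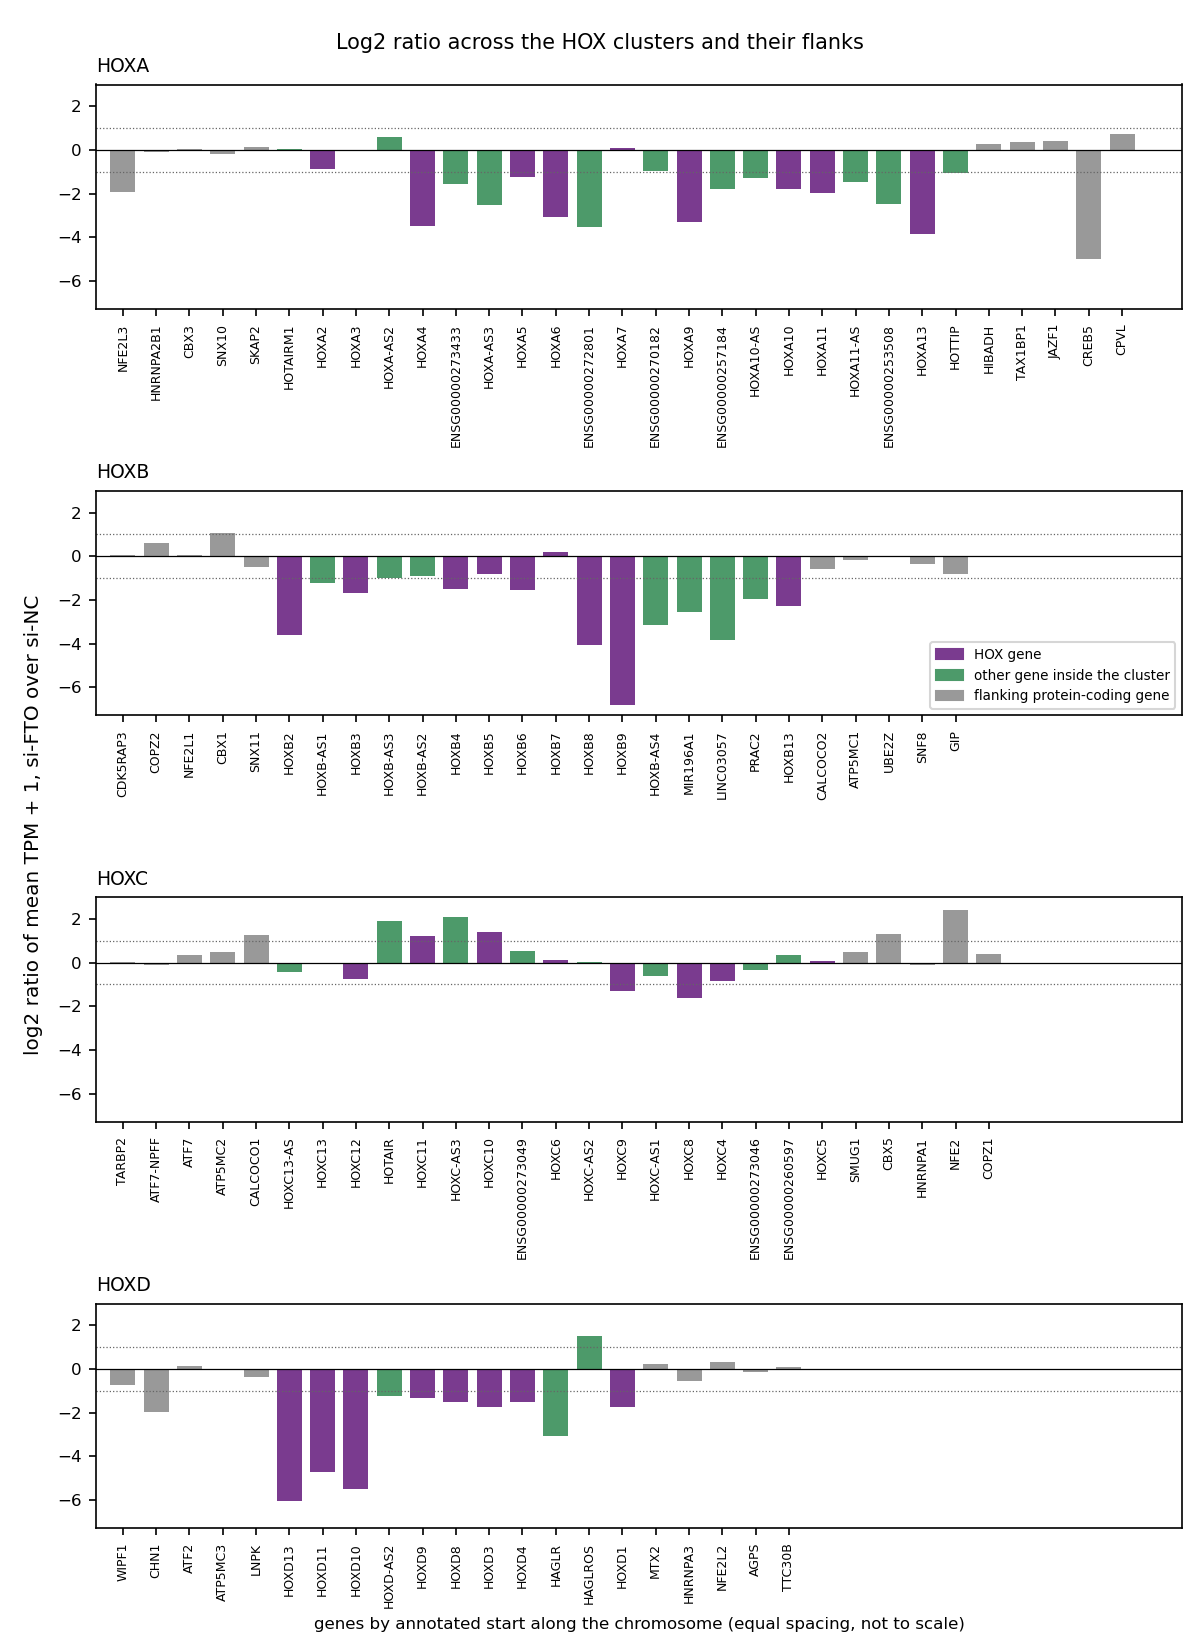
Log2 ratio of mean TPM + 1, si-FTO over si-NC, for genes compared in and around each cluster, ordered by annotated start with equal spacing; dotted lines mark a log2 ratio of 1 in size. HOX genes and the other genes inside HOXA, HOXB and HOXD are mostly lower, HOXC10 and HOXC11 are higher, and most flanking genes are near 0 (those within about 0.2 of 0 can change sign with median-ratio scaling).

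To see whether the difference extended past the clusters, the 5 nearest compared protein-coding genes on each side of each cluster were taken, 40 in all. They lay up to 1795 kb from HOXA, 546.7 kb from HOXB, 432.4 kb from HOXC and 1410 kb from HOXD. EVX1, SKAP1, TTLL6 and EVX2 lie closer but were under 0.5 TPM in both groups, so the stretches next to the clusters are covered in part only. Of these, 3 (7.5%) were lower in si-FTO and 4 (10%) higher, with a median log2 ratio of 0.05, beside 19.1% and 12% of all protein-coding genes compared. By cluster the medians were 0.09 for HOXA, -0.07 for HOXB, 0.42 for HOXC and -0.08 for HOXD, of which those of HOXA, HOXB and HOXD are smaller in size than the shift from scaling. The plot in chromosome order shows them beside the HOX genes. The lower flanking genes were NFE2L3, with 28.0 TPM in si-NC compared with 6.51 TPM in si-FTO, CREB5, with 30.8 TPM in si-NC but listed at 0 in the other group, and CHN1, with 33.7 and 7.81 TPM. The higher ones were CBX1 on the HOXB side and CALCOCO1, CBX5 and NFE2 around HOXC, where NFE2 had 0.515 and 7.07 TPM.

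HOX clusters arose by duplication of an ancestral region, and their neighbours include paralogs that were copied with them. On the list of genes around the clusters, 20 were compared, with 1 (5%) lower, PRAC2, and 3 (15%) higher. Over all genes compared the shares were 17% and 11.4%. PRAC2 reached 0.5 TPM in si-NC alone. Of the 19 that reached it in both groups, 0 were lower and 3 (15.8%) higher, where the background is 11.8% and 9.42%. The ATP synthase genes beside HOXB, HOXC and HOXD were within the fold. ATP5MC1, by HOXB, had 401.2 TPM in si-NC versus 361.3 TPM in si-FTO, ATP5MC2, by HOXC, had 388.4 and 539.4 TPM, and ATP5MC3, by HOXD, had 192.6 and 191.7 TPM. The heterochromatin protein genes CBX1 (41.3 and 89.2 TPM) and CBX5 (45.1 and 113.1 TPM) were the higher ones together with CALCOCO1 (16.9 and 42.8 TPM). Their paralog CBX3, on the HOXA side, was level at 128.9 and 134.0 TPM; it was not on the list and was chosen after its values were seen. CALCOCO2, by HOXB, had 54.9 TPM in si-NC against 36.6 TPM in si-FTO. HNRNPA1, by HOXC, was the most abundant, with 989.9 and 929.4 TPM.

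The compared gene nearest to the cluster was within the fold on each side of HOXA, HOXB and HOXD, and on 1 side of HOXC, where CALCOCO1 on the other side was higher. Beside HOXA, SKAP2 had 23.8 TPM in si-NC compared with 25.9 TPM in si-FTO, HIBADH had 52.9 and 63.3 TPM, TAX1BP1 had 35.9 and 46.6 TPM, JAZF1 had 9.28 and 12.9 TPM and SNX10 had 5.36 and 4.59 TPM. Beside HOXB, SNX11 had 29.5 and 20.6 TPM and UBE2Z 28.0 TPM in both groups. SMUG1, by HOXC, had 25.6 TPM in si-NC versus 35.8 TPM in si-FTO. Beside HOXD, MTX2 had 50.5 and 59.9 TPM, LNPK had 12.9 and 9.79 TPM and ATF2 had 35.2 and 38.5 TPM. LNPK and MTX2, the neighbours of a HOXD cluster whose sum was 270.9 TPM in si-NC against 14.5 TPM in si-FTO, were therefore both within the fold.

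The shares past the fold among TALE homeobox genes, which include DNA-binding partners of HOX proteins, were close to those of all genes. Of 11 TALE homeobox genes, 2 (18.2%) were lower and 1 (9.09%) was higher in si-FTO, beside 17% and 11.4% of all genes compared, with a median log2 ratio of -0.60. PBX3 had 29.0 TPM in si-NC compared with 9.66 TPM in si-FTO, and PKNOX2 had 19.1 TPM in si-NC and was listed at 0 in si-FTO. TGIF1, a repressor of the same class, had 11.4 and 82.9 TPM. The other 8 were within the fold, among them PBX2, the most abundant in si-NC, at 76.8 and 46.5 TPM. PKNOX2 reached 0.5 TPM in si-NC alone. Of the 10 that reached it in both groups, 1 (10%) was lower and 1 (10%) higher, where the background is 11.8% and 9.42%.

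Genes of the complexes that maintain HOX expression were set beside the same background. The shares past the fold were 0% lower and 4.35% higher for COMPASS and trithorax, and 7.14% and 14.3% for PRC2. For CTCF and cohesin they were 0% and 22.2%. Over all genes compared they were 17% and 11.4%. Every compared gene of COMPASS and trithorax and of CTCF and cohesin reached 0.5 TPM in both groups, where the background is 11.8% and 9.42%. For the 13 PRC2 genes that did, the shares were 7.69% and 15.4%. Of 23 genes of the COMPASS and trithorax group, 0 were lower and 1, SETD1B, was higher, with 13.4 TPM in si-NC versus 28.9 TPM in si-FTO. KMT2A, the methyltransferase best known for keeping HOX genes on, had a log2 ratio of -0.53. The most abundant in si-NC was PSIP1, at 171.0 and 102.8 TPM. Of 14 PRC2 genes, which place the repressive mark on histone H3, LCOR was lower at 14.2 and 5.42 TPM. AEBP2, at 13.4 and 30.1 TPM, and PHF19, at 55.0 and 150.4 TPM, were higher. The catalytic subunit EZH2 had 56.8 TPM in si-NC against 50.5 TPM in si-FTO, and RBBP7 was the most abundant at 448.1 and 414.4 TPM.

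Of 22 PRC1 genes, which compact chromatin and mark histone H2A, 5 (22.7%) were lower and 0 higher, beside the 17% and 11.4% of all genes. All 22 reached 0.5 TPM in both groups, where the background is 11.8% and 9.42%. PHC1 had 27.4 TPM in si-NC compared with 3.75 TPM in si-FTO, PCGF3 had 50.9 and 16.4 TPM, BMI1 had 98.6 and 35.2 TPM, and PCGF6 had 28.3 and 10.3 TPM. CBX6, the most abundant in si-NC at 99.98 and 47.3 TPM, was the fifth. With median-ratio scaling the PRC1 counts were 4 lower and 1 higher. Among 9 genes of CTCF and cohesin, which fold the clusters into domains, 0 were lower and 2 (22.2%) higher, beside the same 17% and 11.4%. The higher ones were RAD21, at 134.9 and 287.7 TPM, and NIPBL, at 12.5 and 27.2 TPM. CTCF had 58.2 TPM in si-NC versus 41.6 TPM in si-FTO, and MAZ was the most abundant in si-NC at 411.2 and 259.2 TPM.

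The retinoid genes, which supply, sense or limit retinoic acid, an inducer of anterior HOX genes, parted in both directions. The list mixes these roles, so its counts do not give a direction for retinoic acid itself. Of 15 compared, 7 (46.7%) were lower and 3 (20%) higher, beside 17% and 11.4% of all genes. ALDH1A2, which makes retinoic acid, had 46.0 TPM in si-NC against 0.258 TPM in si-FTO. CRABP2, which carries retinoic acid to its receptor, had 225.4 and 23.8 TPM, and the receptor gene RXRG had 6.62 TPM in si-NC and was listed at 0 in si-FTO. The retinol importer STRA6 had 0.746 and 94.4 TPM, DHRS3 had 8.34 and 75.9 TPM, and the receptor gene RARG had 26.7 and 54.7 TPM. With scaling the counts were 7 and 4. Of the 11 that reached 0.5 TPM in both groups, 3 were lower and 3 higher, 27.3% each, where the background is 11.8% and 9.42%.

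Of the ParaHox genes, the evolutionary sister group of the HOX clusters, 2 of 6 were compared. CDX2, the intestinal caudal-type factor that acts on HOX genes, had 18.1 TPM in si-NC and was listed at 0 in si-FTO, and PDX1 had 1.80 TPM in si-NC and was likewise listed at 0. Of 15 other genes that regulate HOX expression or are tied to it, 8 (53.3%) were lower and 0 higher, beside the 17% and 11.4%. Among the 8 that reached 0.5 TPM in both groups, 2 (25%) were lower and 0 higher, beside 11.8% and 9.42%. LIN28B had 41.2 TPM in si-NC compared with 0.00563 TPM in si-FTO, HMGA2 had 59.6 and 0.488 TPM, and GATA4 had 36.96 TPM in si-NC and was listed at 0 in si-FTO. NPM1, the most abundant, had 2883 and 1655 TPM.

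**Figure D5:**
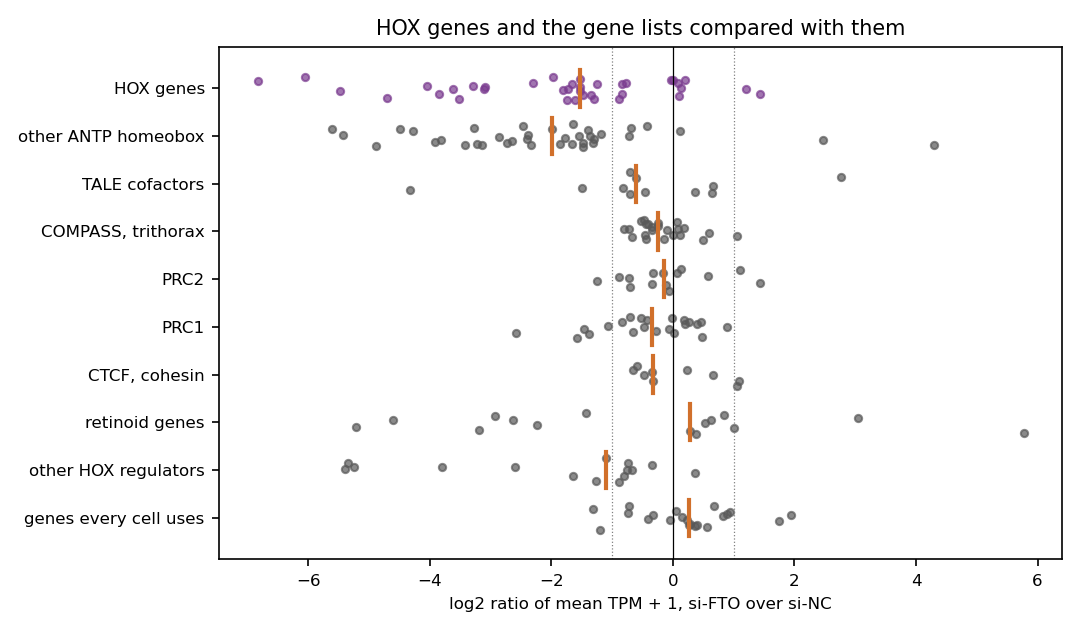
Log2 ratio of mean TPM + 1, si-FTO over si-NC, for each compared gene of the HOX set and of the other lists, 1 row per list, with an orange bar at the median and dotted lines at a log2 ratio of 1 in size; vertical scatter is arbitrary. The medians are -1.53 for the HOX genes and -1.99 for the other homeobox genes of the ANTP class, whereas the COMPASS, PRC2, PRC1 and CTCF lists lie between -0.35 and -0.14 (between -0.18 and 0.04 with median-ratio scaling, where PRC2 turns positive).

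A list of genes that every cell uses was set beside the HOX genes. A value of 0 can be a failed estimate, which this list cannot show at lower levels because its genes are abundant. The HOX genes listed at 0 in si-FTO alone had 15.6 TPM or less in si-NC, and their values of 0 were not tested. All 21 genes of the list had at least 22.45 TPM in each group, and none was listed at 0. Of them 2 (9.52%) were lower and 2 (9.52%) higher, close to the 11.8% and 9.42% of all genes with 0.5 TPM in both groups. The median log2 ratio was 0.26 in the plot of lists, and with scaling the counts were 2 and 4. Among the HOX genes, 1 was listed at 0 in si-NC (HOXB1) and 4 in si-FTO (HOXB1, HOXB8, HOXC12 and HOXD1). Of the HOX genes with at least 0.5 TPM in si-NC, 3 of 37 (8.11%) were listed at 0 in si-FTO, compared with 6.06% of all genes at that level.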

How the data were processed

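RNA sequencing of 6 AGS libraries, 3 si-NC and 3 si-FTO, was used, grouped by sample title. The FTO siRNA was used at 100 nM, and the study's methods name Bowtie, hg19 and RSEM, whereas the submitters' processing notes name HISAT2 and hg19; the annotation is not given, and the study names an unpaired test for 2 groups in general, without tying it to these data. TPM of 58174 genes were deposited by the authors, averaged to 1 value per group. A value of 0.0001 was read as 0. The log2 ratio, p-value and q-value that the authors give per gene, and a second deposited table, were not used. Symbols matched 55726 identifiers. Depth is unknown.

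Computed here were log2 ratios of mean TPM with a pseudocount of 1, a minimum of 0.5 TPM in at least 1 group, and calls at a log2 ratio of 1 in size. A planned limma fit needs values per library and was not run. Alternatives were a pseudocount of 0.1, other filters and thresholds, and median-ratio scaling (factor 0.884). The 39 HOX genes enter every count and sum; of a list, up to the 4 largest log2 ratios each way past the fold and the most abundant member are named, and of lncRNA and flanking lists every member with at least 0.5 TPM. The 5 nearest genes on each side, KMT2A, EZH2 and CTCF were chosen after values were seen. Some genes covered by the rule are not reported here. Not found by symbol were HOXA-AS1, MIR10A, MIR196B, KIAA1715 (found as LNPK) and PECAM1. Members and lists were chosen with earlier results of these data known. Positions come from GRCh37 with the lifted GENCODE annotation, promoters and miRNAs from RefSeq. Python 3.11.15, numpy 2.4.6 and pandas 2.3.3 were used, and the calls were tested on simulated data.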

Additional observations from a re-analysis of the deposited data

How the results depend on the processing

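The count of 25 lower HOX genes stayed within 1.5 times under a pseudocount of 0.1 (27), no filter (25), a minimum of 5 TPM (22) and median-ratio scaling (25), and was 17 with at least 0.5 TPM in both groups, a setting chosen after seeing the data. The count of 2 higher genes was 2 under each of these 5. At a log2 ratio of 2, which calls fewer genes by construction, 12 were lower and 0 higher. Among the 12 compared genes whose exons overlap no other gene, also chosen after seeing the data, 8 were lower and 1 higher; fewer genes enter these counts.

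The summed HOXC level reversed without HOXC10, from 0.44 to -0.41. Without their most abundant members, HOXB9 and HOXD13, the log2 ratios of the HOXB and HOXD sums were -1.52 and -3.47, against -2.40 and -4.13; these members hold a large part of the sums. The other 9 alternatives for the cluster sums, those of HOXA included, moved the log2 ratio by less than a fold of 1.5 and kept its direction. Of the 37 genes compared, the 27 past the fold stayed past it in the same direction with a pseudocount of 0.1 and with scaling. The ratio before taking the log2 moved by a fold of over 1.5 for 12 of the 37 with that pseudocount and for 0 with scaling. HOXA2 and HOXC12 passed the fold with the pseudocount of 0.1 only, and scaling changed the sign of 2 genes, HOXA3 and HOXC13.

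No paired analysis was possible because the table holds 1 mean per group. For the same reason no library was left out, and the error between libraries is unknown. The unknown depth limits above all the genes near 0 TPM.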

Other observations

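Of 48 listed homeobox genes of the ANTP class outside the HOX clusters, 37 were compared, and 31 were lower in si-FTO with 2 higher, at a median log2 ratio of -1.99, beside 17% and 11.4% of all genes compared. Of the 37, 22 reached 0.5 TPM in si-NC alone and so could only be lower. Over the 14 that reached it in both groups, 10 were lower and 1 higher, with a median of -1.44, where the background is 11.8% and 9.42%. NKX2-5, a cardiac factor, was the most abundant in si-NC with 75.4 TPM and had 0.569 TPM in si-FTO. EN2, of the midbrain and hindbrain border, had 48.2 and 0.143 TPM, and HMX1 had 30.1 and 0.0592 TPM. BARX2 had 21.5 TPM in si-NC and was listed at 0 in si-FTO. Of the 36 genes of the list that reached 0.5 TPM in si-NC, 16 (44.4%) had a listed value of 0 in the other group, compared with 6.06% of all genes at that level. The reverse held for 0 of 15, compared with 2.58%.

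The 2 higher genes were MEOX1, a somite factor, with 0.493 TPM in si-NC versus 28.4 TPM in si-FTO, and TLX3, a neuronal factor, with 1.35 and 12.1 TPM. HHEX, of liver and blood vessels, was level at 10.6 and 11.6 TPM. These genes lie outside the HOX clusters, and their part in the HOX values was not tested.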
